A study of Mus musculus with 12 samples.

Results

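The genes described here are those of respiratory complex I, taken as every gene name in the 12 libraries that starts with Nduf. There were 52 such names among 31272 gene names. By role, 37 encoded subunits (7 core and 30 accessory), 8 encoded assembly factors (the Ndufaf genes), and 7 were names of other kinds, namely pseudogene copies and the genes Ndufa4 and Ndufa4l2. Bone marrow cells were sorted as hematopoietic stem cells (HSCs) from wild-type (WT) mice, 3 days after ionizing radiation (IR) in the irradiated groups, and their mRNA was sequenced as stranded libraries. The groups were unirradiated controls (Ctrl), IR, Ab_IR and L_IR, with 3 libraries each. Ab and L are not spelled out in the labels and are used as given. Mouse ages and the number of animals behind a library were not given, so p-values measure the spread between these libraries, which may be technical.

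Complex I is the entry point of electrons into the mitochondrial respiratory chain. It takes electrons from NADH, passes them over a flavin and a chain of iron-sulfur clusters in its matrix arm to ubiquinone, and pumps protons through its membrane arm. The core subunits carry out the reaction, the accessory subunits surround and stabilize them, and the assembly factors help to build the complex without remaining in it. The hydrophobic core of the membrane arm is encoded by mitochondrial DNA (the mt-Nd genes), so a complete complex needs both genomes. Quiescent HSCs are known to rely little on respiration, and maturing erythroid and myeloid progenitors rely on it more.

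Values were FPKM, that is, fragment numbers relative to gene length and library size. No read counts stand behind them in the files, so the depth is unknown. Fold changes and class levels are on the log2(FPKM + 1) scale, which understates changes of low genes. Of the HSC markers, Slamf1, Procr, Fgd5, Hoxb5 and Mecom stayed at or below 1.26 FPKM in the 12 libraries, while Kit reached 6.70 to 25.4 FPKM and Ly6a 25.9 to 61.5 FPKM. The whole list of 12 HSC markers summed to 83.5 to 89.7 FPKM in Ctrl, 71.2 to 78.8 in IR, 79.7 to 86.7 in Ab_IR and 86.6 to 87.4 in L_IR, and none of its genes was at 0 throughout a group. Neutrophil and monocyte markers (10 genes) summed to 11150 to 13010 FPKM in Ctrl, 16500 to 16770 in IR, 12190 to 12790 in Ab_IR and 8988 to 9213 in L_IR. Several defining HSC markers were thus at or near 0 beside abundant myeloid transcripts. In such bulk samples, fewer cells of a type and less RNA per cell cannot be told apart.

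Ctrl replicate 1 stood apart from the rest. It listed 44.1% of gene rows at 0, against 24.7% to 27.3% in the other libraries. It was the lowest of the 12 libraries for 29 of 37 subunits and 6 of 8 assembly factors. Its Nduf genes held 0.213% of the FPKM sum, against 0.347% and 0.323% in Ctrl replicates 2 and 3. Counts of genes in comparisons with Ctrl are therefore given with and without it.

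**Figure D1:**
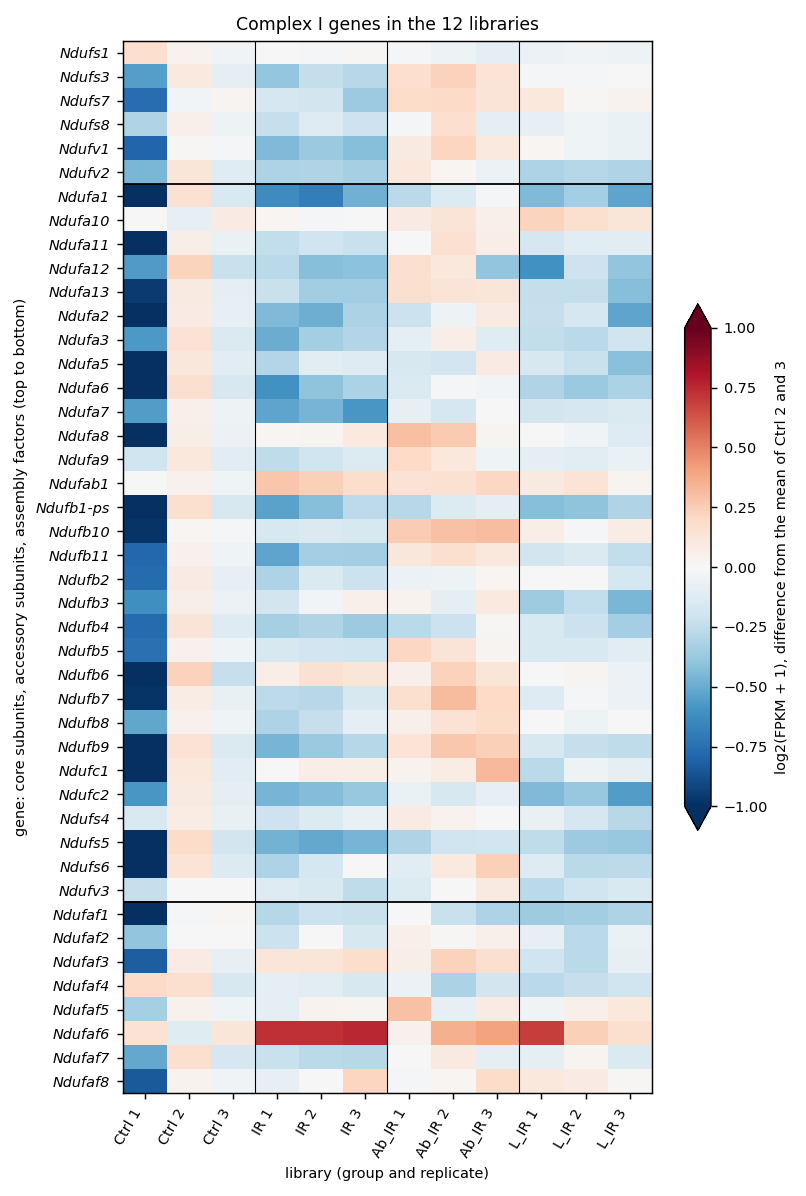
Each row is a complex I subunit or assembly factor (1 core subunit is not drawn) and each column a library, and the colour gives log2(FPKM + 1) as the difference from the mean of Ctrl replicates 2 and 3, with blue lower and red higher and with values beyond 1 drawn in the end colours. Ctrl replicate 1 is blue in most rows, the IR columns are mostly pale blue among subunits, the Ab_IR columns are mostly pale red or white, and Ndufaf6 is red in the IR libraries.

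The shortfall of Ctrl replicate 1 moved with gene length. Its log2 difference from the mean of Ctrl replicates 2 and 3 was -2.40 in Ndufb1-ps, -1.86 in Ndufa2, -1.85 in Ndufb6 and -1.74 in Ndufa1, and 0.17 in Ndufs1, the longest core gene with a merged exon length of 8086 bp. Across the 37 subunits, Pearson's r between log2 length and this difference was 0.62, and across 12409 genes it was 0.29, both as descriptions over genes that share the same libraries. Among genes of over 1000 to 2000 bp, the median difference was -0.97 in 14 subunits and -0.22 in 1474 genes of all kinds. Subunits of that length were thus further below the other controls than the median gene of like length. The 5 subunits over 4000 bp had a median of -0.74 against 0.11 in 5875 genes, but they were divided. They ranged from -0.98 in Ndufb7 to 0.17 in Ndufs1, with Ndufab1 at -0.0004.

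**Figure D2:**
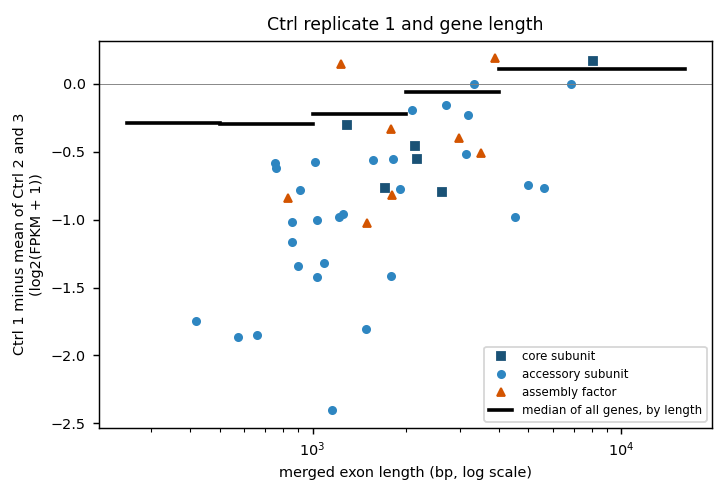
Each point is a complex I subunit or assembly factor (1 core subunit is not drawn), with its merged exon length in bp on a log axis and the log2(FPKM + 1) of Ctrl replicate 1 minus the mean of Ctrl replicates 2 and 3 on the vertical axis, and black bars are medians over all genes of a length class. Most subunits lie under the bar of their own class, down to -2.40 in Ndufb1-ps.

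Within the complex, the levels of subunits differed widely. Among accessory subunits, Ndufc2 had the highest mean, with 49.3 to 79.1 FPKM, followed by Ndufb11 with 34.5 to 67.5 FPKM. Ndufb2, an accessory subunit of the membrane arm, had the lowest mean of all subunits over the 12 libraries, with 1.09 to 2.78 FPKM, although Ndufc1 was lower in Ctrl replicate 1 at 0.71 FPKM. The assembly factors were lower as a class, from Ndufaf2 with 1.49 to 2.40 FPKM to Ndufaf8 with 5.61 to 12.7 FPKM. FPKM are relative to length, but the length used for each gene is not known and reads can be split between copies. Levels of different genes can therefore be set beside each other only roughly.

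Averaged over the 37 subunits, the level in log2(FPKM + 1) was 4.30, 4.35 and 4.37 in the IR libraries, 4.37 to 4.43 in L_IR and 4.59 to 4.63 in Ab_IR. Ctrl replicates 2 and 3 were at 4.65 and 4.49 and Ctrl replicate 1 at 3.72. Ab_IR therefore lay above IR and L_IR without overlap. Ctrl replicate 2 lay just above Ab_IR, and Ctrl replicate 3 lay between L_IR and Ab_IR. The order of IR and L_IR was not kept with each library scaled by its median log2 ratio, where IR lay at 4.35 to 4.42 and L_IR at 4.35 to 4.40. The assembly factors did not follow this order. They averaged 2.80 to 2.87 in IR, 2.83 to 2.87 in Ab_IR, 2.73 to 2.79 in L_IR, and 2.37, 2.86 and 2.78 in Ctrl replicates 1, 2 and 3. The overlap of IR and Ab_IR was not kept under quantile normalization, where IR lay at 2.88 to 2.94 and Ab_IR at 2.81 to 2.85. The gap between both classes was 1.49 ± 0.0060 (SD, n = 3) in IR, 1.65 ± 0.0429 in L_IR and 1.76 ± 0.0418 in Ab_IR, and it was 1.79 and 1.71 in Ctrl replicates 2 and 3 and 1.35 in Ctrl replicate 1.

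**Figure D3:**
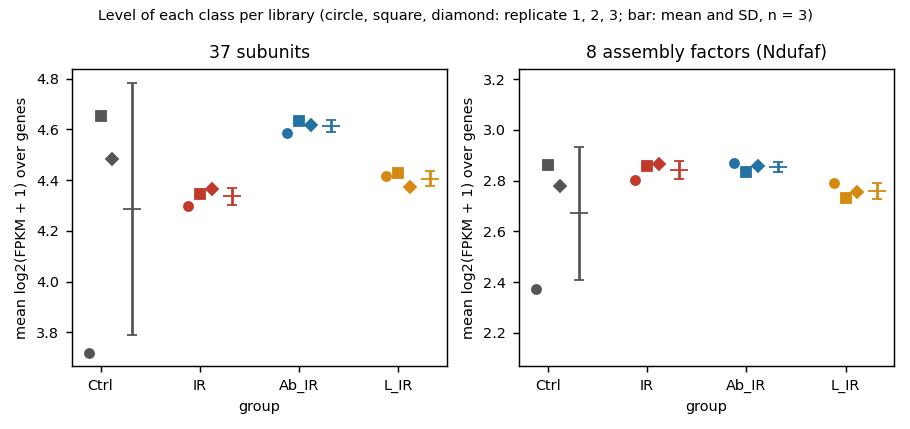
The mean log2(FPKM + 1) over 37 subunits (left) and over 8 assembly factors (right) is plotted for each library by group, with the group's mean and SD (n = 3) beside the points, on vertical axes of equal span that do not start at 0. Ab_IR libraries lie at 4.59 to 4.63 for subunits, above IR at 4.30 to 4.37, whereas for assembly factors Ab_IR and IR overlap near 2.8 to 2.9, and Ctrl replicate 1 (circle) is the lowest point of both plots.

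The first comparison asks how complex I transcripts differed 3 days after irradiation, IR against Ctrl. With all libraries, 3 of the 50 Nduf genes tested were higher in IR and 0 lower at an adjusted p under 0.05 (limma). At an unadjusted p under 0.05 the counts were the same, 3 and 0. Over all 12072 genes tested, 17.5% were called higher and 25.5% lower. The genes called were Ndufaf6, Ndufab1 and Ndufs5-ps, and none of the 7 core subunits was among them. The spread of the controls was wide, since the SD of the subunits' mean level was 0.50 in Ctrl on the log2 scale and 0.03 in IR. Without any one of the IR libraries the count of 3 became 1, and without Ctrl replicate 3 it became 2. A call at more than a 2-fold change was made in 7.60% of all genes and, among the Nduf genes, in Ndufs5-ps alone.

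Without Ctrl replicate 1, 26 Nduf genes were lower in IR and 3 higher, where 34.7% of all genes were lower and 25.1% higher. Of the 37 subunits, 23 were lower (62.2%) and 1 was higher, and their median log2 fold change was -0.22 against -0.06 for all genes. Of the 8 assembly factors, Ndufaf1 was lower and Ndufaf6 higher. The verdict on the subunits therefore rested on a single control library, and 2 controls remained in this fit.

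Among core subunits, Ndufv1, which binds NADH and the flavin, was listed at 22.9, 40.8 and 40.1 FPKM in Ctrl replicates 1 to 3 and at 29.6, 31.0 and 29.9 FPKM in IR. The IR libraries lay between the low control and the other controls. Its log2 fold change was -0.15 with all libraries (adjusted p = 0.618, limma) and -0.41 (SE 0.0432, adjusted p = 0.000444) without Ctrl replicate 1. Ndufs3, Ndufs7, Ndufs8 and Ndufv2, further core subunits of the matrix arm, changed by -0.30, -0.24, -0.19 and -0.31 without that library and were also called lower. Ndufs1 was not called, with a log2 fold change of 0.00.

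The largest falls among accessory subunits without Ctrl replicate 1 were those of Ndufa1, Ndufa7 and Ndufs5. Ndufa1 (X-linked, chromosome X, 37187588 to 37191163, minus strand), a small subunit of the membrane arm, was listed at 9.51, 38.2 and 30.6 FPKM in Ctrl and at 21.8, 20.8 and 24.2 FPKM in IR. Its log2 fold change was -0.60 (SE 0.106, adjusted p = 0.00372, limma) without Ctrl replicate 1 and -0.02 (adjusted p = 0.979) with it. Ndufa7, of the matrix arm, changed by -0.52 (adjusted p = 0.000721) and Ndufs5, at the intermembrane face, by -0.48 (adjusted p = 0.00886). All 3 were also listed lower in Ctrl replicate 1 than in the other controls. Reads of Ndufs5 may be split with its copy Ndufs5-ps, and the values of both are given further below.

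Ndufab1 went the other way. It encodes the mitochondrial acyl carrier protein, which is also a cofactor of fatty acid synthesis and of iron-sulfur cluster assembly. It was listed at 5.17, 5.37 and 4.98 FPKM in Ctrl and at 6.47, 6.28 and 5.99 FPKM in IR, without overlap. Its log2 fold change was 0.23 with and without Ctrl replicate 1 (adjusted p = 0.0303 and 0.0191, limma). The call was lost without Ctrl replicate 3 or without any of the IR libraries, and with no filter on low values (adjusted p = 0.0596).

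Ndufaf6 (chromosome 4, 11051045 to 11076205, minus strand), an assembly factor that takes part in the biogenesis of the mt-Nd1 protein, rose in IR. It was listed at 4.27, 3.39 and 4.18 FPKM in Ctrl and at 6.93, 6.90 and 7.03 FPKM in IR. The groups did not overlap, and here Ctrl replicate 1 was no lower than the other controls. The log2 fold change was 0.69 (SE 0.0890, adjusted p = 0.00153, limma) with all libraries and 0.74 (adjusted p = 0.000552) without Ctrl replicate 1, and it was the one Nduf gene higher in IR under every library left out. Ndufaf1, of the machinery that assembles the membrane arm, was listed at 4.93, 10.9 and 11.2 FPKM in Ctrl and at 8.88, 9.39 and 9.34 FPKM in IR, and was lower only without Ctrl replicate 1 (-0.24, adjusted p = 0.00852). The remaining Ndufaf genes did not pass either test, with log2 fold changes of -0.18 to 0.41 with all libraries.

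**Figure D4:**
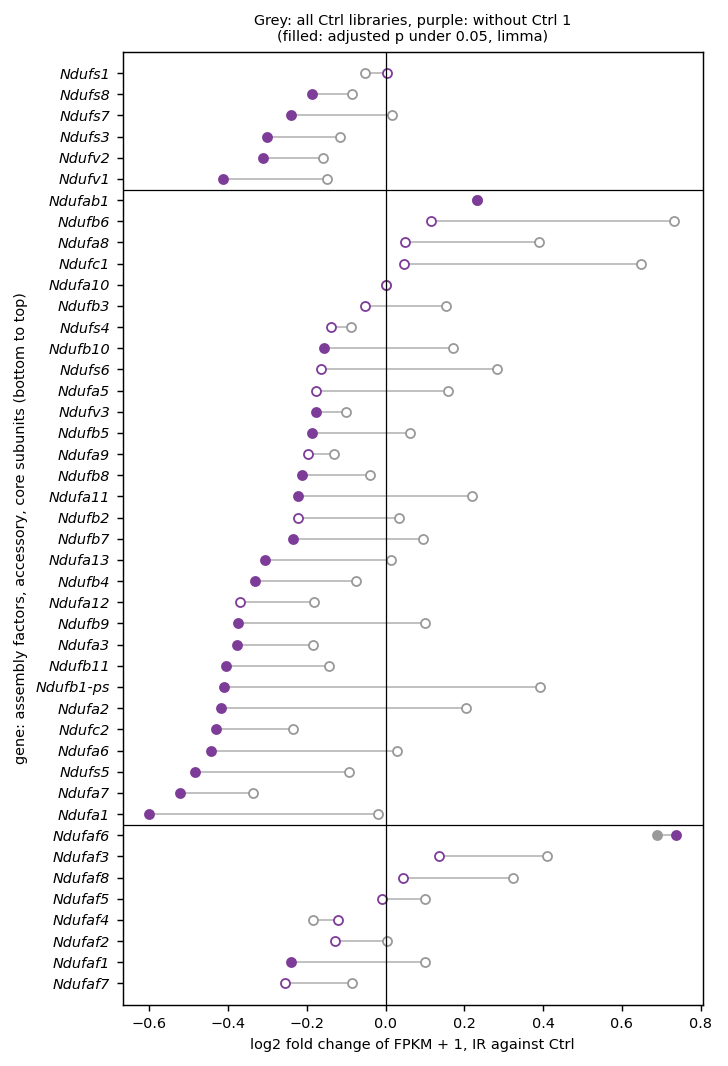
For each subunit and assembly factor, except 1 core subunit that is not drawn, the log2 fold change of IR against Ctrl is drawn with all libraries (grey) and without Ctrl replicate 1 (purple), joined by a line, and filled points passed an adjusted p of 0.05 in limma (for Ndufab1 both points are filled and coincide). Most subunits shift to the left without that library, 23 of them to a filled point below 0, whereas Ndufaf6 stays at 0.69 to 0.74.

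The mitochondrially encoded subunits, taken from a list of all 7 mt-Nd genes, were lower in IR in 3 cases with all libraries (mt-Nd1, mt-Nd4 and mt-Nd6) and in 6 without Ctrl replicate 1, with median log2 fold changes of -0.33 and -0.44. Here the direction was the same with both sets of controls. mt-Nd6, the membrane arm gene of the mitochondrial light strand, changed by -0.71 (adjusted p = 0.00238, limma) and mt-Nd1, beside the ubiquinone channel, by -0.49 (adjusted p = 0.00702). Of 12 assembly factors outside the Nduf names, Aifm1, a mitochondrial flavoprotein also known for its part in cell death, was higher (0.38), and Foxred1, Dmac2 and Tmem186 were lower (-0.32, -0.28 and -0.38). These shares, 8.33% higher and 25% lower, stand beside 17.5% and 25.5% of all genes. Without Ctrl replicate 1, 2 were higher (16.7%), with Tmem70 added, and 4 lower (33.3%), with Dmac1 added. Genes of complexes III, IV and V (34 genes) were higher in 4 and lower in 0 with all libraries, and lower in 12 and higher in 4 without Ctrl replicate 1. The latter shares, 35.3% lower and 11.8% higher, stand beside the 34.7% and 25.1% of all genes. The mitochondrial ribosome had 22 of 80 genes higher (27.5%) and 9 lower (11.2%) without Ctrl replicate 1, with a median of 0.04. With all libraries 8 were higher and 3 lower.

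Erythroid markers moved with these groups. The 9 listed genes found summed to 3028 to 3655 FPKM in Ctrl and 536 to 543 FPKM in IR, and none was at 0. A list of 10 heart muscle genes summed to 123 to 157 FPKM in the IR libraries and to 128 and 150 FPKM in Ctrl replicates 2 and 3, but to 1.71 FPKM in Ctrl replicate 1. Plasma cell markers (8 genes) summed to 634 to 747 FPKM in Ctrl and 993 to 1017 FPKM in IR, none at 0. Of the neutrophil and monocyte markers, with the sums given above, S100a8, S100a9, Ngp, Ltf and Ctsg were higher in every IR library than in any control, and the others overlapped. The part of these lists in the differences of complex I genes was not tested.

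The comparison of Ab_IR with IR asks how the irradiated libraries labelled Ab differed from those labelled IR alone. Of 50 Nduf genes tested, 27 were higher in Ab_IR and 3 lower, where 39.4% of all 12067 genes were higher and 29.4% lower. Of the 37 subunits, 25 were higher (67.6%) and 0 lower, also at an unadjusted p under 0.05 (27 higher and 0 lower), and their median log2 fold change was 0.29 against 0.06 for all genes. The changes were small, and none of the 50 reached a 2-fold change, which 7.57% of all genes did. Of the 8 assembly factors, Ndufaf7 was higher and Ndufaf6 lower, with a median of 0.04 that turned to -0.02 under quantile normalization, -0.01 under median-ratio scaling and -0.13 with the length trend taken out.

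The core subunits were called higher in 6 of 7 cases. Ndufv1 (chromosome 19, 4007384 to 4012806, minus strand) was listed at 29.6, 31.0 and 29.9 FPKM in IR and at 43.1, 47.2 and 43.4 FPKM in Ab_IR, that is 30.2 ± 0.764 against 44.6 ± 2.29 FPKM (SD, n = 3). The log2 difference was 0.55 (SE 0.0453, adjusted p = 3.50e-05, limma). Ndufs3 (chromosome 2, 90894634 to 90904827, minus strand) was listed at 17.5, 19.5 and 18.9 FPKM in IR and at 26.1, 27.3 and 25.5 FPKM in Ab_IR, a change of 0.48 (SE 0.0499, adjusted p = 0.000114). For both genes the lowest Ab_IR library lay well above the highest IR library. Ndufs7 (chromosome 10, 80249121 to 80256794, plus strand), at the last iron-sulfur cluster before ubiquinone, was listed at 21.6, 21.3 and 18.7 FPKM in IR and at 27.9, 27.9 and 26.7 FPKM in Ab_IR, a change of 0.41 (adjusted p = 0.000582). Ndufv2 and Ndufs8 changed by 0.33 and 0.21, and the call of Ndufs8 was lost without IR replicate 1 or IR replicate 3, with no filter on low values (adjusted p = 0.0692), under median-ratio scaling (0.15, adjusted p = 0.0648) and with the length trend taken out (0.02, adjusted p = 0.787). Ndufs1, the largest core subunit, changed by -0.06 (adjusted p = 0.179).

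Of the 30 accessory subunits, 19 were higher and 0 lower. Ndufb9 (chromosome 15, 58933756 to 58939488, plus strand), a LYR-motif protein of the membrane arm, was listed at 32.6, 34.8 and 37.1 FPKM in IR and at 50.1, 55.0 and 53.8 FPKM in Ab_IR. Its change of 0.59 (SE 0.0570, adjusted p = 7.56e-05, limma) was the largest among subunits. Ndufb11, encoded on chromosome X, changed by 0.53 (adjusted p = 0.000112) from 45.3 ± 3.29 to 65.8 ± 1.48 FPKM, and Ndufb7, of the intermembrane face, by 0.46 (adjusted p = 0.000238) from 12.2 ± 0.603 to 17.2 ± 1.02 FPKM. The rises were found in both arms of the complex. Of 16 matrix arm subunits 11 were higher, and of 20 membrane arm subunits 14, with medians of 0.30 in each arm, Ndufab1, which occurs in both arms, being counted in neither. The subunits that did not pass had log2 fold changes from -0.06 (Ndufs1 and Ndufab1) to 0.32 (Ndufa12).

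Ndufaf6, the gene that rose with IR, was listed at 3.91, 5.10 and 5.29 FPKM in Ab_IR against 6.90 to 7.03 FPKM in IR, and its log2 difference was -0.47 (SE 0.0926, adjusted p = 0.00285, limma). Its highest Ab_IR library lay below the lowest IR library. Ndufaf7 (chromosome 17, 78937136 to 78948052, plus strand), a methyltransferase that acts during assembly, was listed at 3.44, 3.29 and 3.28 FPKM in IR and at 4.19, 4.51 and 3.83 FPKM in Ab_IR, a change of 0.25 (adjusted p = 0.00695) that was lost under quantile normalization and with all 12 libraries in one fit. The remaining 6 Ndufaf genes had log2 fold changes of -0.07 (Ndufaf4) to 0.17 (Ndufaf2) and did not pass. Since IR libraries stand in both the comparison with Ctrl and this one, the values of Ndufaf6 are given side by side and not as separate findings.

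Promoters of 4 genes are shown, all called higher in both Ab_IR and L_IR against IR. They are the core subunits with the largest changes and Ndufaf7, to let their sequence be read beside the values. Each runs from 250 bases before to 50 bases after the annotated start in RefSeq (GRCm38.p6), 5′ to 3′. Capitals mark matches on either strand to 3 motifs searched, the NRF1 core CATGCGC, which reads GCGCATG on the other strand, the ETS core CCGGAAG, which reads CTTCCGG there, and the YY1 core GATGGCG, which reads CGCCATC there. The windows are chr19:4012706-4013005 (minus strand) for Ndufv1, chr2:90904672-90904971 (minus strand) for Ndufs3, chr10:80249199-80249498 (plus strand) for Ndufs7, chr17:78936885-78937184 (plus strand) for Ndufaf7.
Ndufv1: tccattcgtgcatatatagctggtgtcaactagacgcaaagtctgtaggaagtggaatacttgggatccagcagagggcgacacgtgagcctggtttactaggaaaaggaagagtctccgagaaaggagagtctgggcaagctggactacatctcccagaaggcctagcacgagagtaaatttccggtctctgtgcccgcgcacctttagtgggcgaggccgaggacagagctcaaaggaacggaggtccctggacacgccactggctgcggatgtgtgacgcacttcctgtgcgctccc
Ndufs3: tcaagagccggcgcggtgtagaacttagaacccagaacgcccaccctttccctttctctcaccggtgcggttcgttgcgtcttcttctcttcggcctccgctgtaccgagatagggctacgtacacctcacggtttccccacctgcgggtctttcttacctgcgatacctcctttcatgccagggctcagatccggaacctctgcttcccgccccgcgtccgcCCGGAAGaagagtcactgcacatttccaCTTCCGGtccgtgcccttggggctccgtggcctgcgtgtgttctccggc
Ndufs7: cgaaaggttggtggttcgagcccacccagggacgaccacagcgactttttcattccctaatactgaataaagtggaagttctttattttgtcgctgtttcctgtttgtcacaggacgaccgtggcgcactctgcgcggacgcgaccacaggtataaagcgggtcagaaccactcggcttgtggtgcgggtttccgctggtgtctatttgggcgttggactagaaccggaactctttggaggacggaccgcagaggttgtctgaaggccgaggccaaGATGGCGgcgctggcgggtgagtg
Ndufaf7: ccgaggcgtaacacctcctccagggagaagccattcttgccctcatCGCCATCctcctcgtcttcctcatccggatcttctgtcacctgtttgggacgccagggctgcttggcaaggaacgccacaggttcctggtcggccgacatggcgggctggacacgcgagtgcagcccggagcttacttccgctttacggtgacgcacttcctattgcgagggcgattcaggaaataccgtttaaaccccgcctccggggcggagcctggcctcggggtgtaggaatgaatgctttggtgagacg

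In these windows Ndufs3 held a pair of ETS cores, Ndufs7 and Ndufaf7 held a YY1 core each, and Ndufv1 held no match. No 2 matches overlap in the printed windows. A promoter was found for 33 of 37 subunits and 7 of 8 assembly factors. The NRF1 core occurred in 5 of the 33 subunit promoters (15.2%) against 8.31% of 8798 promoters of genes with at least 1 FPKM in 3 libraries. The YY1 core occurred in 6 (18.2%) against 7.97%, and the ETS core in 4 (12.1%) against 21.6%. Among the 7 assembly factor promoters each of the NRF1, YY1 and ETS cores occurred in 2 (28.6%). Over all 27025 promoters the shares were 4.41% for the NRF1 core, 4.04% for the YY1 core and 9.93% for the ETS core. These shares describe letters in a window and rest on few promoters.

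**Figure D5:**
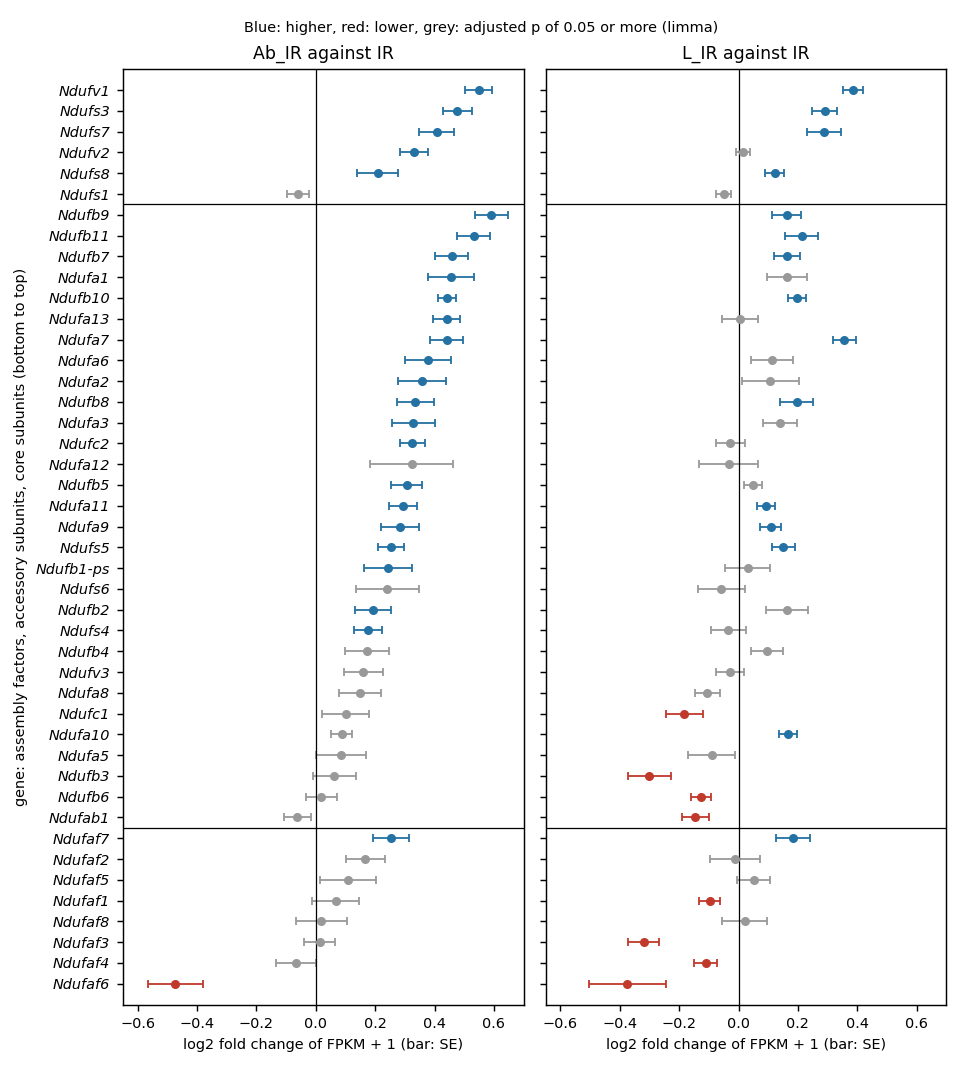
For each subunit and assembly factor, except 1 core subunit that is not drawn, the log2 fold change is plotted with its SE for Ab_IR against IR (left) and L_IR against IR (right), with blue points higher, red points lower and grey points at an adjusted p of 0.05 or more (limma, 3 libraries a group). On the left most subunits are blue and none is red, up to 0.59 in Ndufb9, and on the right fewer subunits are blue and 4 are red, while 4 of the 8 assembly factors are red.

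Among the mitochondrially encoded subunits, mt-Nd1, mt-Nd4 and mt-Nd6 were higher in Ab_IR (0.18, 0.14 and 0.43) and mt-Nd2, mt-Nd4l and mt-Nd5 lower (-0.24, -0.69 and -0.21). Of the 12 other assembly factors, Dmac1, Dmac2, Foxred1 and Tmem186 were higher (0.50, 0.39, 0.23 and 0.39), and Aifm1 and Tmem70 were lower (-0.37 and -0.16), or 33.3% and 16.7%. Complexes III, IV and V had 19 of 34 genes higher (55.9%) and 1 lower (2.94%), with a median of 0.19. The proteins of the mitochondrial ribosome, which translates the mt-Nd transcripts, had 22 of 80 genes higher (27.5%) and 11 lower (13.8%), both smaller shares than the 39.4% and 29.4% of all genes, with a median of 0.05.

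Erythroid markers summed to 536 to 543 FPKM in IR and 3196 to 3343 FPKM in Ab_IR, and all 9 were above 1 FPKM in both. Heart muscle genes summed to 123 to 157 FPKM in IR and 1.08 to 1.46 FPKM in Ab_IR, where Actc1, Myl7, Ryr2 and Sln were at 0. Plasma cell markers summed to 993 to 1017 FPKM in IR and 1088 to 1177 FPKM in Ab_IR, but their members were divided. Jchain was at 707 to 728 FPKM in IR and 919 to 1008 FPKM in Ab_IR, whereas Xbp1 was at 199 to 201 and 91.1 to 100.1 FPKM, and Mzb1, Irf4 and Prdm1 were also lower in every Ab_IR library. Of the neutrophil and monocyte markers, S100a8, S100a9, Ngp, Ltf and Ctsg were lower in every Ab_IR library than in IR, Elane, Camp, Prtn3 and Lyz2 were higher, and Mpo overlapped. The part of these lists in the differences was not tested, and heart transcripts cannot be told apart from the groups in this comparison. By merged exon length, the median log2 difference among genes of over 500 to 1000 bp was 0.23 in all genes and 0.25 in the 8 subunits, which are nearly alike. It was 0.18 in all genes and 0.33 in the 14 subunits of over 1000 to 2000 bp, 0.13 and 0.28 (9 subunits) over 2000 to 4000 bp, and -0.02 and 0.19 (5 subunits) over 4000 bp. Genes of up to 500 bp, 1 subunit among them, had a median of 0.07. With the length trend taken out, 16 Nduf genes were higher in place of 27. With all 12 libraries in one fit, which shares the wide spread of Ctrl replicate 1, 7 were higher, and with the 11 other libraries in one fit 28 were.

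The group labelled L_IR was compared with IR in the same way. Fewer subunits rose, and several members fell. Of 50 Nduf genes tested, 15 were higher in L_IR and 9 lower, where 40.8% of all 12163 genes were higher and 26.0% lower. Of the 37 subunits, 14 were higher (37.8%) and 4 lower, with a median log2 fold change of 0.10 against 0.07 for all genes. The subunit median was -0.01 with the length trend taken out. The share of subunits called higher was thus no larger than that of all genes. No Nduf gene passed a 2-fold change, against 6.22% of all genes.

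The core subunits Ndufv1, Ndufs3, Ndufs7 and Ndufs8 were the 4 of 7 that rose. Ndufv1 was listed at 41.1, 39.3 and 38.7 FPKM in L_IR against 29.6 to 31.0 FPKM in IR, which is a log2 difference of 0.39 (SE 0.0326, adjusted p = 5.49e-05, limma). Ndufs3 was listed at 22.9, 22.8 and 23.2 FPKM in L_IR, a change of 0.29 (adjusted p = 0.000715), and Ndufs7 at 26.2, 24.6 and 25.0 FPKM, also 0.29 (adjusted p = 0.00372). Ndufs8 changed by 0.12 (adjusted p = 0.0137), but by 0.05 under median-ratio scaling (adjusted p = 0.185) and by 0.04 with the length trend taken out (adjusted p = 0.321), and its call was also lost with 11 libraries in one fit (adjusted p = 0.110). For Ndufs1 and Ndufv2 the log2 fold changes were -0.05 and 0.02 and did not pass. Ndufv1 and Ndufv2, neighbours at the NADH end of the matrix arm, were thus unlike in L_IR.

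Among accessory subunits, Ndufa7 had the largest rise, from 9.77 ± 0.436 FPKM in IR to 12.8 ± 0.186 FPKM in L_IR (SD, n = 3), or 0.36 on the log2 scale (SE 0.0382, adjusted p = 0.000175, limma). Ndufb11 and Ndufb10 followed with 0.21 (adjusted p = 0.0126) and 0.20 (adjusted p = 0.00117). The call of Ndufb11 was lost under median-ratio scaling (0.14, adjusted p = 0.0514) and with the length trend taken out (0.11, adjusted p = 0.0986). Ndufb3, of the membrane arm, fell from 39.1 ± 3.21 to 31.5 ± 2.35 FPKM, a change of -0.30 (adjusted p = 0.00865). Its 3 L_IR libraries, at 31.3, 33.9 and 29.3 FPKM, all lay below the lowest IR library at 35.6 FPKM. Ndufc1 and Ndufab1 fell by 0.18 (adjusted p = 0.0354) and by 0.15 (adjusted p = 0.0251), and Ndufb6 fell by 0.13 (adjusted p = 0.0145). The call of Ndufc1 was lost without any of IR replicates 1 to 3 or L_IR replicate 1, that of Ndufab1 without IR replicate 1 or 2 or L_IR replicate 1 or 3, and that of Ndufb6 without IR replicate 2. With no filter on low values the call of Ndufc1 was lost (adjusted p = 0.0774), and under quantile normalization that of Ndufb6 (-0.06, adjusted p = 0.122). Both were also lost with 11 libraries in one fit.

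The assembly factors were lower in 4 of 8 cases and higher in 1. Ndufaf3, which acts on the ubiquinone-side module together with Ndufaf4, was listed at 9.56, 9.56 and 9.97 FPKM in IR and at 7.49, 7.06 and 8.2 FPKM in L_IR. Its log2 fold change was -0.32 (SE 0.0533, adjusted p = 0.00157, limma), and its groups did not overlap. Ndufaf6 was listed at 6.68, 4.63 and 4.33 FPKM in L_IR, with L_IR replicate 1 close to the IR libraries, and changed by -0.38 (SE 0.130, adjusted p = 0.0374). Ndufaf4 and Ndufaf1 changed by -0.11 and -0.10 (adjusted p = 0.0363 and 0.0428), and Ndufaf7 by 0.18 (adjusted p = 0.0239). The call of Ndufaf3 was kept with each library left out but lost with all 12 libraries in one fit (adjusted p = 0.176, limma). The other calls were less steady. That of Ndufaf6 was lost without IR replicate 1, 2 or 3 or L_IR replicate 2 or 3, that of Ndufaf1 without IR replicate 2 or 3 or any L_IR library, that of Ndufaf4 without IR replicate 1 or 2 or L_IR replicate 1 or 2, and that of Ndufaf7 without IR replicate 2 or 3 or L_IR replicate 2. All 4 were lost with no filter on low values, and that of Ndufaf7 also under median-ratio scaling (0.11), with the length trend taken out (0.11) and under quantile normalization (0.02, adjusted p = 0.792). The class had a median of -0.05 against 0.07 for all genes.

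Of the mt-Nd genes, 5 of 7 were higher in L_IR and 0 lower, also at an unadjusted p under 0.05, with a median of 0.21. mt-Nd6 and mt-Nd4 changed by 0.27 and 0.25. The mitochondrial ribosome had 12 genes of 80 higher (15%) and 22 lower (27.5%), where 40.8% and 26.0% of all genes were. Complexes III, IV and V had 10 of 34 higher (29.4%) and 4 lower (11.8%), both smaller shares than those of all genes. The 12 other assembly factors had 5 higher (41.7%) and 2 lower (16.7%). Erythroid markers summed to 1597 to 1652 FPKM in L_IR, between IR and Ab_IR, and heart muscle genes to 1.09 to 1.41 FPKM, with Actc1, Nppa, Ryr2, Sln and Tnnt2 at 0. Plasma cell markers summed to 993 to 1017 FPKM in IR and 1473 to 1498 FPKM in L_IR, mostly from Jchain (1259 to 1287 FPKM in L_IR), while Xbp1 (107 to 108 FPKM) and Mzb1 were lower in every L_IR library than in IR. The neutrophil and monocyte markers had a lower sum in L_IR, as given above, but Mpo overlapped between the groups, at 3131 to 3249 FPKM in IR and 3046 to 3243 FPKM in L_IR. The part of these lists in the values was not tested, and heart transcripts cannot be told apart from the groups in this comparison either. With each library scaled by its median log2 ratio, or with the length trend taken out, 6 Nduf genes were higher in place of 15. The count of 9 lower became 3 without IR replicate 2 and 5 without IR replicate 1.

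In Ab_IR against L_IR, 23 of 50 Nduf genes were higher in Ab_IR and 0 lower, where 18.2% of all 12194 genes were higher and 19.8% lower. At an unadjusted p under 0.05, 29 were higher and 0 lower. Of the 37 subunits, 22 were higher (59.5%), with a median log2 fold change of 0.20 against 0.01 for all genes, and of the 8 assembly factors Ndufaf3 was higher. A 2-fold change was passed by 0.533% of all genes and by no Nduf gene. Both groups were irradiated and listed heart muscle genes at 1.46 FPKM or less in sum, so that this contrast lies within the libraries at that low level. Erythroid (3196 to 3343 against 1597 to 1652 FPKM), neutrophil and monocyte (12190 to 12790 against 8988 to 9213 FPKM) and plasma cell markers (1088 to 1177 against 1473 to 1498 FPKM) differed in their sums without overlap, although Mpo and Ctsg overlapped, and their part in the values was not tested.

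Of the 7 core subunits 4 were higher, among them Ndufv2, Ndufs3 and Ndufv1 by 0.32, 0.19 and 0.16 (adjusted p = 0.00244, 0.00855 and 0.0319, limma). Ndufv2 was listed at 46.6, 43.8 and 41.4 FPKM in Ab_IR and at 34.8, 35.4 and 34.9 FPKM in L_IR. The L_IR values overlapped those of IR, at 34.8, 34.9 and 34.3 FPKM. The largest accessory differences were those of Ndufa13 (0.44, SE 0.0561, adjusted p = 0.00126), a subunit also known as a regulator of cell death, Ndufb9 (0.43, SE 0.0470, adjusted p = 0.000649) and Ndufb3 (0.36, SE 0.0688, adjusted p = 0.00621). Ndufa13 was listed at 28.5, 27.8 and 27.7 FPKM in Ab_IR and at 21.4, 21.3 and 18.7 FPKM in L_IR, which do not overlap. Ndufaf3 was higher by 0.33 (adjusted p = 0.00731), at 9.15, 10.4 and 9.86 FPKM in Ab_IR.

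Of the 7 mt-Nd transcripts 0 were higher in Ab_IR and 3 lower (mt-Nd2, mt-Nd4l and mt-Nd5, by -0.29, -0.79 and -0.44). The other mt-Nd genes did not pass, with log2 fold changes of -0.11 (mt-Nd4) to 0.15 (mt-Nd6). At an unadjusted p under 0.05 the counts were also 0 and 3. Complexes III, IV and V had 12 of 34 genes higher (35.3%) and 0 lower, and the mitochondrial ribosome 23 of 80 higher (28.7%) and 0 lower, beside 18.2% and 19.8% of all genes. The 12 other assembly factors had 2 higher (16.7%) and 1 lower (8.33%). At an unadjusted p under 0.05 the counts were 17 and 0 for complexes III, IV and V, and 31 and 1 for the ribosome. The count of 23 Nduf genes was 14 without Ab_IR replicate 2 or L_IR replicate 3 and 15 without L_IR replicate 2. It was 9 with the length trend taken out, 14 with no filter on low values and 0 with all 12 libraries in one fit, but 22 with the 11 libraries other than Ctrl replicate 1 in one fit. The call of Ndufv1 was lost without Ab_IR replicate 2 or L_IR replicate 2 or 3, with no filter (adjusted p = 0.0666), under quantile normalization (0.10, adjusted p = 0.118) and with the length trend taken out (0.07, adjusted p = 0.233). With that trend taken out those of Ndufs3 (0.07, adjusted p = 0.142) and Ndufaf3 (0.20, adjusted p = 0.0634) were also lost.

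Against the unirradiated controls, Ab_IR had 0 of 50 Nduf genes higher and 0 lower in limma, where 1.45% of all 12134 genes were higher, 0.651% lower and 0.923% past a 2-fold change. At an unadjusted p under 0.05, 3 were higher and 0 lower. Without Ctrl replicate 1, Ndufb10 and Ndufs5-ps were higher and 0 were lower, where 3.60% of all genes were higher and 2.38% lower. Heart muscle genes summed to 128 and 150 FPKM in the controls kept and to 1.08 to 1.46 FPKM in Ab_IR. The control left out was at 1.71 FPKM. In the fit without it, heart transcripts cannot be told apart from the groups, and their part was not tested. Ndufb10, a subunit of the membrane arm with cysteine motifs, was listed at 25.3, 51.6 and 49.97 FPKM in Ctrl and at 60.8, 62.5 and 63.1 FPKM in Ab_IR, which differ by 0.29 on the log2 scale (SE 0.0558, adjusted p = 0.0346) without that control. The median over subunits was 0.07 without it and 0.30 with it. Of the 7 mt-Nd genes 0 passed with all libraries, and 6 were lower at an unadjusted p under 0.05. Without Ctrl replicate 1, 4 of them were lower (57.1%) and 0 higher, and the median was -0.38 with either set of controls. Complexes III, IV and V had 0 of 34 genes higher with all libraries and 1 (2.94%) without it, and the mitochondrial ribosome 0 of 80 and 2 (2.5%), with 0 lower in each case. At an unadjusted p under 0.05, 6 and 8 were higher with all libraries and 0 lower in both.

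L_IR against Ctrl likewise gave 0 Nduf genes higher and 0 lower in limma, with 1 and 1 at an unadjusted p under 0.05, where 4.76% of all 12251 genes were higher, 4.08% lower and 2.65% past a 2-fold change. Without Ctrl replicate 1, 8 Nduf genes were lower and 1 higher, where 10.3% of all genes were lower and 10.4% higher. The gene higher was Ndufs5-ps. Heart muscle genes summed to 128 and 150 FPKM in the controls kept and to 1.09 to 1.41 FPKM in L_IR. In that fit too, heart transcripts cannot be told apart from the groups, and their part was not tested. Of the 37 subunits 7 were lower, the largest changes being those of Ndufc2 (-0.46, adjusted p = 0.0104, limma), Ndufa1 (-0.44, adjusted p = 0.0306) and Ndufb1-ps (-0.38, adjusted p = 0.0465). Ndufc2, a membrane arm subunit, was listed at 49.3, 79.1 and 69.7 FPKM in Ctrl and at 54.5, 57.0 and 50.2 FPKM in L_IR. The core subunit Ndufv2 (-0.30, adjusted p = 0.0372) and the assembly factor Ndufaf1 (-0.34, adjusted p = 0.00672) were also lower. Of the mt-Nd genes 0 passed with all libraries (3 lower at an unadjusted p under 0.05) and 3 of 7 were lower without Ctrl replicate 1 (42.9%), with medians of -0.16 and -0.19. Complexes III, IV and V had 2 of 34 genes higher (5.88%) and 0 lower with all libraries, and 4 higher (11.8%) and 1 lower without that control. For the mitochondrial ribosome 1 of 80 was higher and 1 lower with all libraries, and 6 higher (7.5%) and 5 lower without it. The 3 comparisons with Ctrl share the same controls and their values are set side by side only.

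The 7 remaining Nduf names are not complex I subunits or assembly factors by their present names. Ndufa4, now assigned to cytochrome c oxidase, was listed at 23.9, 62.7 and 55.9 FPKM in Ctrl, 44.4 to 45.6 FPKM in IR, 51.1 to 58.7 FPKM in Ab_IR and 45.5 to 53.7 FPKM in L_IR. It was higher in Ab_IR than in IR (0.26, adjusted p = 0.00354, limma), a call lost with the length trend taken out (0.08, adjusted p = 0.275), and lower in IR than in Ctrl without Ctrl replicate 1 (-0.38, adjusted p = 0.00191). Ndufa4l2, its hypoxia-induced relative, was listed at 0.00 to 0.26 FPKM and Ndufs6b, a processed pseudogene, at 0.15 to 0.55 FPKM, and both were too low to be tested.

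Copies of subunit genes share sequence with their parents, so reads can be split between them and single values are uncertain. Ndufs5-ps was listed at 0.00, 8.58 and 8.14 FPKM in Ctrl, 25.4 to 30.4 FPKM in IR, 17.3 to 21.3 FPKM in Ab_IR and 12.7 to 18.3 FPKM in L_IR. Its log2 fold change in IR against Ctrl was 2.71 (SE 0.855, adjusted p = 0.0432, limma) with all libraries and 1.63 (SE 0.0794, adjusted p = 2.17e-05) without Ctrl replicate 1, and the call with all libraries was lost without any of the IR libraries. With Ctrl replicate 1 at 0.00 the former value depends on the pseudocount. It was 3.87 (adjusted p = 0.117) with 0.1 FPKM, and with no filter on low values the call was also lost (adjusted p = 0.104). It was lower in Ab_IR and in L_IR than in IR (-0.52 and -0.89, adjusted p = 0.00139 and 0.000861). Its parent Ndufs5 was listed at 8.70, 23.8 and 18.2 FPKM in Ctrl and at 14.3 to 14.8 FPKM in IR. Summed, the pair stood at 8.70, 32.3 and 26.3 FPKM in Ctrl and at 39.7 to 45.1 FPKM in IR. The sums were 35.3 to 39.4 FPKM in Ab_IR and 28.45 to 34.2 FPKM in L_IR. Without Ctrl replicate 1 the pair was thus higher in IR, where Ndufs5 alone was lower. The part of split reads in the calls of Ndufs5 was not tested. In Ab_IR, Ndufa12 was listed at 23.1, 22.2 and 15.5 FPKM and Ndufa12-ps at 31.2, 32.6 and 71.0 FPKM, so the library lowest for the gene was the highest for its copy. Ndufb4c, lower in IR than in Ctrl without Ctrl replicate 1 (-0.32, adjusted p = 0.00192), was listed at 8.72 to 8.86 FPKM in IR, beside its parent Ndufb4 at 8.65 to 9.10 FPKM, and Ndufab1-ps at 4.40 to 5.93 FPKM, beside Ndufab1 at 5.99 to 6.47 FPKM. Ndufab1-ps was lower in Ab_IR than in IR (-0.36, adjusted p = 0.0150), a call lost without Ab_IR replicate 2. Ndufb1-ps, counted here among the subunits as the name under which Ndufb1 appears, is annotated in GENCODE M21 as a noncoding RNA with a bidirectional promoter.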

How the data were processed

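Poly(A) RNA of 12 libraries of sorted bone marrow cells was measured, 3 each of Ctrl, IR, Ab_IR and L_IR by their labels. The deposited values were read as FPKM, which the authors computed from reads trimmed with fastp. The submitters' processing notes name HISAT2, StringTie and GRCm38/mm10, and the study's methods name RSEM and DESeq2, so the quantifier behind the files is uncertain. FPKM carry no counts, and the authors' count test was not applied.

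Genes were kept where 3 or more of the fitted libraries reached 1 FPKM, and were tested on log2(FPKM + 1) with limma 3.58.1 (trend) in R 4.3.3, 2 groups at a time, with Benjamini-Hochberg adjustment over all genes and a threshold of 0.05. A rule named all Ndufaf genes, the core subunits, the 3 accessory subunits with the largest rise and fall among calls without overlap, and all names outside the complex or under the filter. Ndufb6, Ndufc2, Ndufb2, Ndufa2, Ndufa11 and Ndufa12 were named after their values were seen, as were single genes of the other lists. The values of 1 core subunit are not reported here, but it is included in counts, means and medians. The members and lists were chosen with earlier results of these data known. Positions and merged exon lengths came from GENCODE M21 (GRCm38), promoters from RefSeq. Of the 52 Nduf names 50 had a position. Scripts were tested on simulated data. Figures were drawn with matplotlib 3.10.9.

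Alternatives were a pseudocount of 0.1 FPKM, no filter, a mean of at least 10 FPKM, quantile and median-ratio scaling, removal of the length trend, a single fit over all 12 libraries, a block for replicate numbers, and each library left out. A fit of 11 libraries without Ctrl replicate 1 was added after seeing the data.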

Additional observations from a re-analysis of the deposited data

How the results depend on the processing

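Directions of the subunit medians in Ab_IR against IR and Ab_IR against L_IR stayed positive under every alternative run. Only the sign is meant, since with the length trend taken out fewer genes were called in both, as counted below. Single values shrank too, such as Ndufs8 in Ab_IR against IR from 0.21 to 0.02. The median of L_IR against IR ranged down to -0.01 with that trend taken out, where Ndufa11 turned from 0.09 to -0.0005 (adjusted p = 0.99). The IR against Ctrl median, 0.01, was -0.01 under quantile normalization, and without 1 library it ranged from -0.22 (Ctrl replicate 1) to 0.19 (Ctrl replicate 2), with 0.13 without Ctrl replicate 3. Causes were not tested. Depth is unknown, so no limit from counting can be given. For IR against Ctrl, the count of Nduf genes higher was 3, and 1 with no filter or a mean of at least 10 FPKM. The count lower was 0, and 1 with all 12 libraries in one fit and 29 with 11 libraries. For Ab_IR against IR, 27 higher became 16 with the length trend taken out and 7 with 12 libraries, and 3 lower became 1 with a mean of at least 10 FPKM or with 12 libraries. For L_IR against IR, 15 higher became 6 with median-ratio scaling or the length trend taken out, 2 with 12 libraries and 9 with 11, and 9 lower became 5 with no filter, 3 with a mean of at least 10 FPKM, 2 with 12 libraries and 5 with 11. For Ab_IR against L_IR, 23 higher became 14 with no filter, 9 with the length trend taken out and 0 with 12 libraries, and 0 lower became 1 under quantile normalization or with the length trend taken out. Against Ctrl, 0 higher in Ab_IR became 3 with 12 libraries and 5 with 11, and in L_IR 0 higher became 1 and 2, and 0 lower became 1 and 11. Leaving out each library in turn gave 1 to 3 higher and 0 to 26 lower for IR against Ctrl, 24 to 30 and 2 to 4 for Ab_IR against IR, 11 to 18 and 3 to 7 for L_IR against IR, 14 to 22 and 0 to 1 for Ab_IR against L_IR, 0 to 2 and 0 to 0 for Ab_IR against Ctrl, and 0 to 1 and 0 to 8 for L_IR against Ctrl. For IR against Ctrl 26 lower and, for L_IR against Ctrl, 8 lower came without Ctrl replicate 1, and no more than 1 without any other. The 9 lower of L_IR against IR were 3 without IR replicate 2, 5 without IR replicate 1, 7 without L_IR replicate 1 and 6 without each of the others. Libraries share replicate numbers across groups, but the numbers did not pair them, as correlations of deviations between same-numbered libraries were -0.27 to 0.21. With the replicate block the counts stayed within 1.5 times, at 2 higher and 0 lower for IR against Ctrl, 29 and 3 for Ab_IR against IR, 14 and 7 for L_IR against IR, 19 and 0 for Ab_IR against L_IR, and 0 and 0 for both other comparisons with Ctrl. With the block the calls of Ndufab1 in IR against Ctrl (adjusted p = 0.0916), Ndufaf1 and Ndufaf4 in L_IR against IR (0.0686 and 0.0850) and Ndufv1 in Ab_IR against L_IR (0.0785) were lost, as were those of Ndufb9 in L_IR against IR (0.0563) and of Ndufa3, Ndufb8 and Ndufs6 in Ab_IR against L_IR (0.0852, 0.108 and 0.0662).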
